A study of Mus musculus with 6 samples.

Results

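The platelet-derived growth factor (PDGF) family of the mouse was followed in sorted cells of the embryonic genital tubercle. Its members were the 4 ligand genes Pdgfa, Pdgfb, Pdgfc and Pdgfd and the 2 receptor genes Pdgfra and Pdgfrb, 6 of 18193 genes named on the array. Every probe set annotated to 1 of these genes was taken, which gave 14 of 45037 probe sets: 2 each for Pdgfa, Pdgfb, Pdgfc and Pdgfrb and 3 each for Pdgfd and Pdgfra. The genital tubercle is the bud of the later penis or clitoris, and an epithelial strip along its midline, the urethral plate, gives rise to the urethra. All embryos were 12.5 days post coitum, of mixed background and of both sexes pooled, and carried the alleles Shhtm1(EGFP/cre)Cjt and Gt(ROSA)26Sortm3(CAG-EYFP)Hze. Cre expressed from Shh removes a stop from a yellow fluorescent protein gene in the ROSA26 locus, so a cell is marked if it or an ancestor expressed Shh. Tubercles were dissociated with trypsin and sorted into a reporter-positive fraction, labelled urethral epithelium, and a reporter-negative fraction, labelled genital tubercle without the reporter. Each fraction had 3 arrays, made from pools of 3, 5 and 2 littermates for replicates 1, 2 and 3. The labels do not say whether equal pools of both fractions came from the same litter.

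PDGF ligands act as disulphide-linked dimers that bring receptor chains together, whose tyrosine kinases then phosphorylate each other and recruit adaptors and enzymes to the membrane. Dimers of the A and C chains act mainly through the alpha receptor, encoded by Pdgfra, and dimers of the B and D chains mainly through the beta receptor, encoded by Pdgfrb. In many embryonic organs epithelium makes the A or C chain while the mesenchyme beside it carries the alpha receptor. The beta receptor is best known from pericytes and smooth muscle around vessels, where endothelium supplies the B chain, and it is also made by mesenchyme.

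The sequence just upstream of the start site is shown for 3 members because they differ in how their signal was distributed between the fractions: by its brightest probe set, Pdgfa was higher on every reporter-positive array, Pdgfra was far lower on 2 of them, and Pdgfc overlapped between the groups. The windows hold the 250 bases before the start in RefSeq (GRCm38.p6), written 5′ to 3′ on the strand of the gene, and RefSeq windows were at hand for 4 of the 6 members. Capitals mark each GC box, the letters GGGCGG on either strand. Pdgfa has 2 annotated starts, of which the farther upstream was used, at chr5:138994945-138995194 on the minus strand. The Pdgfc window is chr3:81036166-81036415 on the plus strand, and the Pdgfra window is chr5:75152001-75152250 on the plus strand.
Pdgfa: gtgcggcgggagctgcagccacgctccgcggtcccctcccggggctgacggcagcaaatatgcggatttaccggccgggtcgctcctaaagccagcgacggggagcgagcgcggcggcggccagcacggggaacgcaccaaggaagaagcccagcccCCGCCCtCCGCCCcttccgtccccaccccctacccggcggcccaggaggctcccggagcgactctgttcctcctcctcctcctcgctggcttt
Pdgfc: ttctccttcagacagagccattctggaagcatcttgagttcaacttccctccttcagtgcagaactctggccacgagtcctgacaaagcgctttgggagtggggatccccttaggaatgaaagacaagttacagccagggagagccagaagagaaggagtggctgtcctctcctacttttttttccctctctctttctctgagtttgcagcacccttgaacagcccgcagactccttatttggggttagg
Pdgfra: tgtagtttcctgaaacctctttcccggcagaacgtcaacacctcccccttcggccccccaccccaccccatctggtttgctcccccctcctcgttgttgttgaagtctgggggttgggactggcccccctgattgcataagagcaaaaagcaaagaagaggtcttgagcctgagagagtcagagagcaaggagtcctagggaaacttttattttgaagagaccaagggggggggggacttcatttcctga
The Pdgfa window was 72.4% G and C, against 50.8% for Pdgfc, 54.4% for Pdgfra and a median of 52.4% over 32851 windows. It held 2 GC boxes, which begin 93 and 86 bases upstream of the start. A GC box was present in 32.74% of all windows, so a match is common. Other motifs were searched on both strands too, and none was found in the 3 windows. The TATA box, searched as TATAAA, occurs in 12.37% of all windows. The CCAAT box occurs in 33.85% of them. The site of Egr proteins, searched as GCGNGGGCG, occurs in 4.7%.

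The deposited values were 1 linear intensity per probe set and array, and they differed widely in scale between arrays. The median deposited signal was 1.83 to 7 on the reporter-negative arrays and 3.78, 2.99 and 0.28 on reporter-positive replicates 1, 2 and 3. Hybridization controls were alike, at 1443 to 1884, so the arrays had not been brought to a common level. Values were therefore quantile normalized and written as log2(signal + 16), a scale that understates changes of dim genes. A probe set was called above background where its deposited signal exceeded the brightest of 27 unspiked bacterial controls on that array. This held for 45.6% to 54.2% of probe sets on the reporter-negative arrays and for 45.2%, 38.4% and 23.0% on reporter-positive replicates 1, 2 and 3. Reporter-positive replicate 3 was thus the dimmest array, and values are given with and without it.

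Shh, which drives the reporter, was 4.06 to 4.63 on the reporter-negative arrays and 8.49 to 9.92 on the reporter-positive arrays in normalized log2 units. All 8 epithelium markers were above every reporter-negative array on every reporter-positive array, and 1 of them passed the test, the keratin gene Krt8, higher by 4.46 (SE 0.47, limma adjusted p = 0.0215, n = 3 per group). Cdh1, the gene of E-cadherin, differed by 2.00 (SE 0.57, adjusted p = 0.770). The 9 mesenchyme markers all had a lower mean in the reporter-positive group, but the arrays of that group differed: their median difference from the reporter-negative mean was -0.03 on replicate 1, -2.35 on replicate 2 and -1.96 on replicate 3. Reporter-positive replicate 1 therefore carried mesenchyme marker signal at the reporter-negative level, together with high Shh. The collagen gene Col1a2 shows this, with normalized values of 9.42, 8.85 and 9.11 on the reporter-negative arrays and 8.80, 5.68 and 5.90 on the reporter-positive ones.

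**Figure D1:**
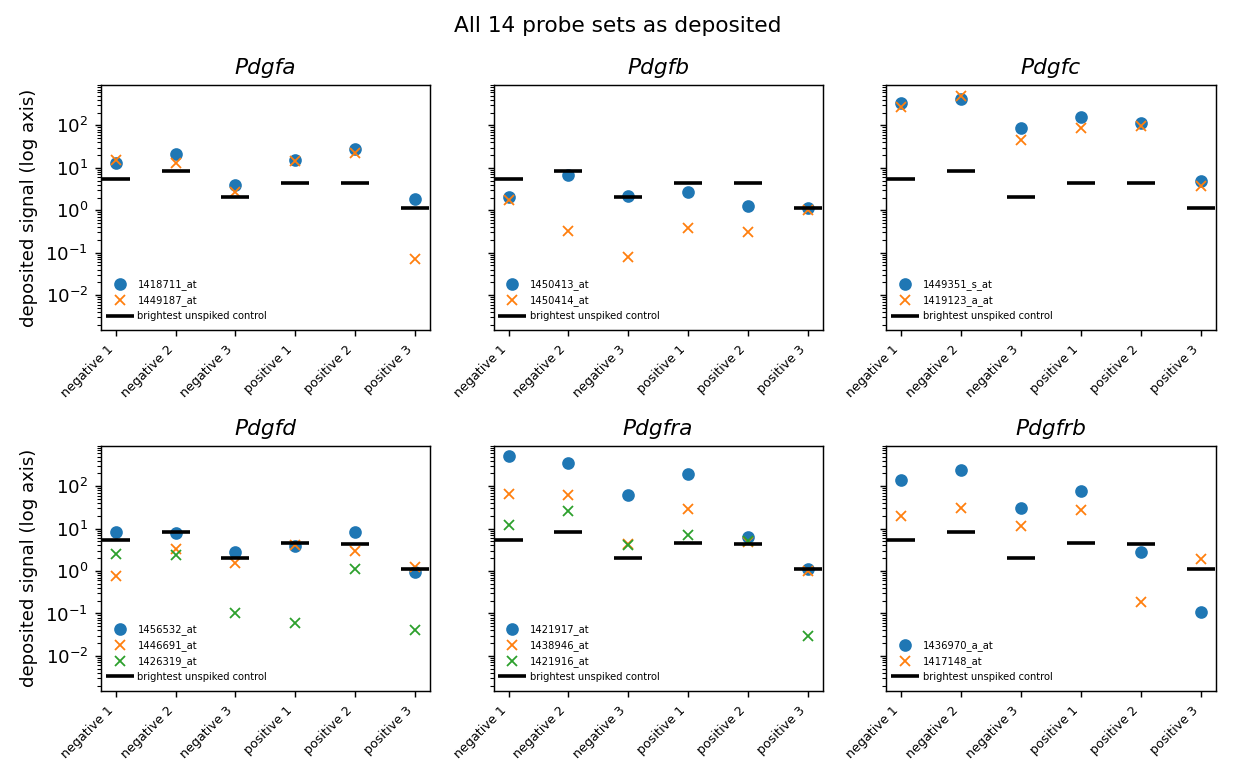
Deposited signal (log axis) of all 14 PDGF probe sets on each of the 6 arrays, 1 panel per gene. Circles mark the probe set with the highest mean of each gene, crosses the others and black bars the brightest unspiked control of the array. The Pdgfc probe sets lie above the bar on all 6 arrays, the second Pdgfb and the third Pdgfd probe set lie below it on all 6, and all signals of reporter-positive replicate 3 are low.

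Among the ligands, Pdgfa alone had its brightest probe set higher on every reporter-positive array than on every reporter-negative one. It encodes the A chain, a ligand of the alpha receptor. Each gene is described by its brightest probe set first, meaning the one of highest mean normalized signal. For Pdgfa (1418711_at) the deposited signals were 12.83, 20.72 and 3.92 on reporter-negative replicates 1 to 3 and 15.51, 27.35 and 1.84 on the reporter-positive ones, above background on all 6 arrays. After normalization these became 4.57, 4.69 and 4.68 against 4.96, 5.87 and 5.96. Every reporter-positive array lay above every reporter-negative array, with replicate 1 the closest to them. The replicate 3 value rests on a signal near background, 1.84 against 1.12, which was the lowest of the 6 as deposited. On that array a deposited 1.12, as for Pdgfb (1450413_at), became 4.90 after normalization. A signal at its background would thus also lie above the reporter-negative Pdgfa values. The group means were 5.60 ± 0.55 and 4.65 ± 0.07 (SD, n = 3 each). The difference was 0.96 log2 units (SE 0.36, 95% confidence interval 0.15 to 1.76), but it did not pass the adjustment over 31526 probe sets (limma adjusted p = 0.770). Without reporter-positive replicate 3 the difference was 0.84 (SE 0.30, adjusted p = 0.431), and without replicate 1 it was 1.29 (SE 0.38, adjusted p = 0.457).

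The second Pdgfa probe set (1449187_at) gave 4.66, 4.49 and 4.43 on the reporter-negative arrays and 4.91, 5.68 and 4.09 on the reporter-positive ones. Replicates 1 and 2 of the reporter-positive group were again the highest, and replicate 3, with a deposited signal of 0.07 that was not above background, was the lowest of all 6. With that array the difference was 0.36 (SE 0.39, limma adjusted p = 0.800). Without it the difference was 0.84 (SE 0.28, adjusted p = 0.371), the same size as for the first probe set. Both Pdgfa probe sets were thus higher on the reporter-positive arrays of pools of 3 and 5 embryos. The epithelium markers moved with the first Pdgfa probe set, but not with the second on replicate 3: their median difference from the reporter-negative mean was 1.85, 2.93 and 2.94 on reporter-positive replicates 1, 2 and 3. Their part in the Pdgfa values was not tested. In such mixed samples, fewer cells of a type and less RNA per cell cannot be told apart.

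**Figure D2:**
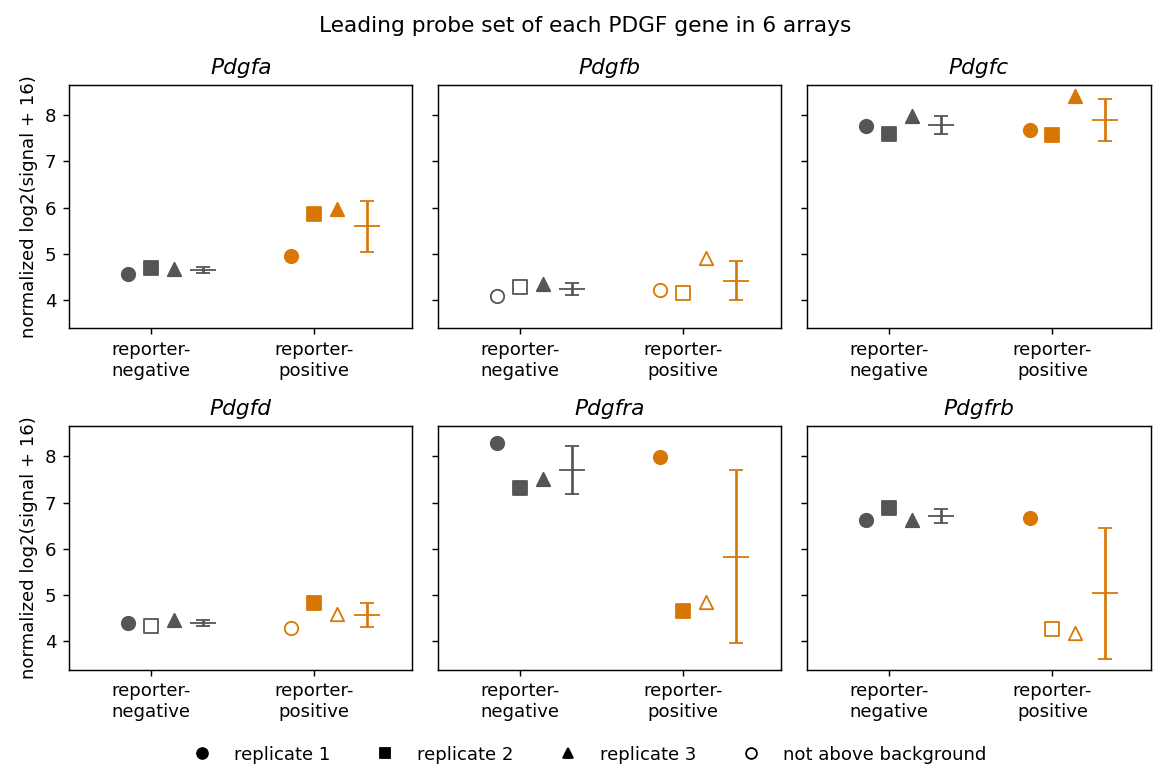
Normalized log2(signal + 16) of the probe set with the highest mean of each PDGF gene, by group. Symbols mark replicates, open symbols arrays where it was not above background, and bars the mean ± SD of 3 arrays. For Pdgfa the reporter-positive arrays sit at 4.96 to 5.96 and the reporter-negative ones at 4.57 to 4.69, while for Pdgfra and Pdgfrb replicate 1 of the reporter-positive group sits with the reporter-negative arrays.

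Pdgfc encodes the C chain, the other main ligand of the alpha receptor, which must be cut by a protease before it can bind. Its signal was bright in both fractions. The probe set with the highest mean (1449351_s_at) had deposited signals of 343.63, 425.98 and 87.39 on the reporter-negative arrays and 155.79, 112.21 and 4.87 on the reporter-positive ones. After normalization these became 7.76, 7.60 and 7.98 against 7.68, 7.58 and 8.41. The groups overlapped, and the highest value came from the dimmest array. On each of the 6 arrays this probe set ranked between the 97.4th and the 98.7th percentile of all probe sets. The difference was 0.11 (SE 0.38, 95% confidence interval -0.73 to 0.95, limma adjusted p = 0.941), and -0.15 (SE 0.34, interval -0.87 to 0.56) without reporter-positive replicate 3.

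The second Pdgfc probe set (1419123_a_at) ran at 7.47, 7.76 and 7.12 on the reporter-negative arrays and at 6.86, 7.36 and 8.02 on the reporter-positive ones. Again the reporter-positive arrays held both the lowest and the highest value. Its difference was -0.04 (SE 0.43, adjusted p = 0.983). These intervals leave room for a change of up to about 1 log2 unit in either direction, so equal levels were not shown. For the first Pdgfc probe set the direction depended on the scaling. Its difference was -0.76 with median centring and -1.72 with the values as deposited. The second stayed below 0 in these settings, at -0.84 and -1.76. As deposited, the median difference of all probe sets tested was -0.32. The log2 scale understates changes of dim probe sets, so this median is no measure of how far bright ones moved with the arrays. Median deposited signals were 6.21, 7 and 1.83 on the reporter-negative arrays and 3.78, 2.99 and 0.28 on the reporter-positive ones. The differences as deposited are therefore not read as a drop of Pdgfc. Probe sets with an _s_at or _a_at suffix, which include both of Pdgfc, may recognise several transcripts.

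Pdgfb encodes the B chain, a ligand of both receptors that is known from endothelium and platelets. It was near or below background. The brighter probe set (1450413_at) had deposited signals of 2.06, 6.82 and 2.14 on the reporter-negative arrays and 2.69, 1.29 and 1.12 on the reporter-positive ones. It was above background on reporter-negative replicate 3 and on no other array, so its level in the reporter-positive cells is only bounded by the background. The groups overlapped (limma adjusted p = 0.829), and no fold is given. The other Pdgfb probe set (1450414_at) was below background on all 6 arrays and, being under the 30th percentile of mean signal, was not tested.

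Pdgfd encodes the D chain, a ligand of the beta receptor that is also activated by cleavage. The brightest of its 3 probe sets (1456532_at) had deposited signals of 8.32, 7.92 and 2.77 on the reporter-negative arrays and 3.82, 8.36 and 0.96 on the reporter-positive ones. It was above background on 2 reporter-negative arrays and on 1 reporter-positive array, and the groups overlapped, with a difference of 0.18 (SE 0.23, adjusted p = 0.827). A second probe set (1446691_at) was above background only on reporter-positive replicate 3. Its normalized values did not overlap, at 4.04 to 4.26 against 4.29 to 5.11, but no fold is given because all reporter-negative arrays were below background. The third (1426319_at) was below background on every array and was not tested. Pdgfb and Pdgfd signals were thus too dim on these arrays for a difference between the fractions to be read.

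By their brightest probe sets, the receptors were lower in the reporter-positive group on average, and the difference came from 2 of its 3 arrays. Pdgfra encodes the alpha receptor, a standard marker of embryonic mesenchyme. Its brightest probe set (1421917_at) had deposited signals of 508.46, 347.48 and 60.62 on the reporter-negative arrays and 195.56, 6.5 and 1.09 on the reporter-positive ones. After normalization these became 8.29, 7.32 and 7.51 against 7.98, 4.66 and 4.85. Reporter-positive replicate 1 lay within the reporter-negative range, and replicates 2 and 3 lay over 2 log2 units below its lowest array. On replicate 3 the probe set was not above background. The means were 5.83 ± 1.87 and 7.71 ± 0.52 (SD, n = 3 each), a difference of -1.88 (SE 0.79, 95% confidence interval -3.63 to -0.13, limma adjusted p = 0.770). Without reporter-positive replicate 3 the difference was -1.46 (SE 0.63, adjusted p = 0.605). Without replicate 1 it was -3.00 (SE 0.50, adjusted p = 0.0991), which did not pass either.

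The other Pdgfra probe sets were dimmer and had smaller differences of the same sign. For 1438946_at the normalized values were 5.75, 5.46 and 4.75 on the reporter-negative arrays and 5.52, 4.49 and 4.64 on the reporter-positive ones, a difference of -0.44 (SE 0.40, adjusted p = 0.778). For 1421916_at they were 4.55, 4.80 and 4.70 against 4.52, 4.51 and 4.01, a difference of -0.34 (SE 0.25, adjusted p = 0.770). The latter probe set did not overlap between the groups, though the gap between reporter-negative replicate 1 and reporter-positive replicate 1 was small. All 3 Pdgfra probe sets were above background on the 3 reporter-negative arrays and on reporter-positive replicates 1 and 2, and below it on replicate 3.

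Pdgfrb encodes the beta receptor. Its brighter probe set (1436970_a_at) had deposited signals of 141.43, 243.16 and 30.47 on the reporter-negative arrays and 76.15, 2.75 and 0.11 on the reporter-positive ones. After normalization these became 6.62, 6.89 and 6.63 against 6.66, 4.28 and 4.18. Reporter-positive replicate 1 again lay within the reporter-negative range, and replicates 2 and 3 were below it and not above background. In percentile ranks among all probe sets the reporter-negative arrays stood at 94.5 to 95.5, and the reporter-positive ones at 94.7, 47.6 and 35.9. The means were 5.04 ± 1.41 and 6.71 ± 0.15 (SD, n = 3 each), a difference of -1.68 (SE 0.62, 95% confidence interval -3.05 to -0.30, limma adjusted p = 0.770). It was -1.33 (SE 0.50, adjusted p = 0.481) without reporter-positive replicate 3. Without replicate 1 the group held only arrays where this probe set was not above background, so its level there is a bound. Set against the lowest signal above background on each of these arrays, or the probe set's own where higher, it was at least 4.08-fold lower on this scale. The second Pdgfrb probe set, described below, was above background on reporter-positive replicate 3, so the bound does not cover it. This bound was not tested. The limma fit without replicate 1 used the measured values and gave -2.51 (SE 0.43, adjusted p = 0.103), a size not to be read as a fold. When all 6 arrays were weighted by their quality, with a weight of 0.115 for reporter-positive replicate 3, the Pdgfrb difference was -1.33 and passed (SE 0.35, adjusted p = 0.0180). In that setting 742 of 31526 probe sets passed, or 2.35%, so the Pdgfrb call stands among many. No other PDGF probe set passed in the settings it was run in, which were 20 for the brightest probe set of a gene, 18 for the further ones tested and 1 for those not tested.

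The second Pdgfrb probe set (1417148_at) did not follow the first. Its deposited signals were 20, 30.38 and 11.78 on the reporter-negative arrays and 27.65, 0.19 and 1.88 on the reporter-positive ones. After normalization these became 4.80, 4.90 and 5.64 against 5.46, 4.02 and 6.04, so the reporter-positive group held both the lowest and the highest value. The difference was 0.06 (SE 0.51, adjusted p = 0.976) and turned to -0.42 (SE 0.38, adjusted p = 0.853) without reporter-positive replicate 3. Both probe sets were low on reporter-positive replicate 2 and high on replicate 1, and they parted on replicate 3.

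By their brightest probe sets, the receptors moved across the reporter-positive arrays as the mesenchyme markers did. For these probe sets of Pdgfra and Pdgfrb and the marker median, differences from the reporter-negative mean were near 0 on replicate 1. They were below -1.9 for all 3 on replicates 2 and 3. The further probe sets did not follow to that extent. Those of Pdgfra differed by -0.44 and -0.34 between the groups. The second of Pdgfrb had its highest value, 6.04, on reporter-positive replicate 3. The summed level of the 9 markers was 8.25 to 11.35 log2 units on the reporter-positive arrays and 11.21 to 11.59 on the reporter-negative ones. The part of the mesenchyme markers in the receptor differences was not tested. Set against the array of the same pool size, the brightest Pdgfra probe set differed by -0.31 for pools of 3 embryos, -2.66 for pools of 5 and -2.66 for pools of 2. The last had a reporter-positive level that was not above background. The same values were 0.04, -2.61 and -2.45 for the brightest Pdgfrb probe set, the latter 2 likewise, and 0.39, 1.19 and 1.29 for that of Pdgfa. The pool of 3 embryos thus gave the smallest difference for these 3 probe sets. This did not hold for every further one. The pools of 3 and 2 gave 0.66 and 0.40 for the second Pdgfrb probe set, and -0.23 and -0.11 for 1438946_at of Pdgfra.

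**Figure D3:**
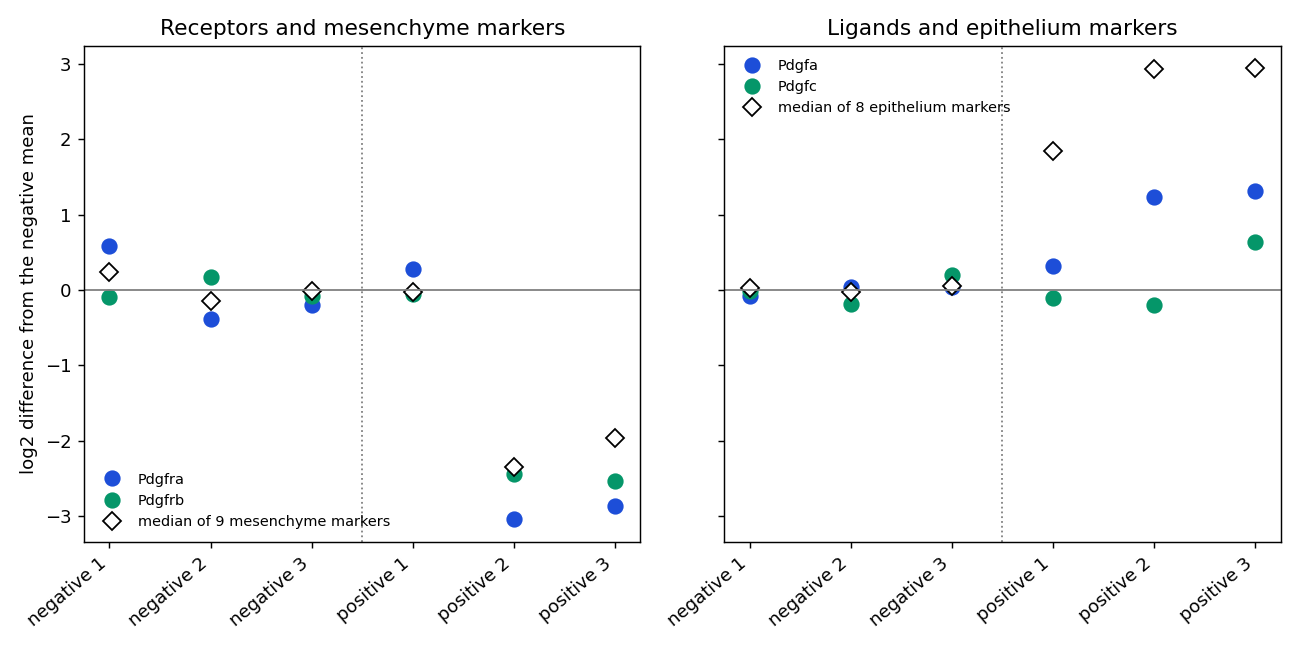
Difference from the mean of the 3 reporter-negative arrays (normalized log2) on each of the 6 arrays. The left panel shows the brightest probe sets of Pdgfra and Pdgfrb and the median of 9 mesenchyme markers. The right panel shows those of Pdgfa and Pdgfc and the median of 8 epithelium markers. On reporter-positive replicate 1 both receptors and the mesenchyme median are near 0, while on replicates 2 and 3 the receptors are below -2.4.

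Over the whole family, 12 of 14 probe sets were tested and none passed an adjusted p of 0.05 in limma. Over all 31526 probe sets tested, 4 passed, which is 0.0127%, all of them higher in the reporter-positive group. With so few calls on the whole array, the absence of a called member says little about the members. Without reporter-positive replicate 3, 139 probe sets or 0.441% passed, and again none of the 12 members' probe sets did. At an unadjusted p under 0.05, 3 of 12 member probe sets passed, the brightest ones of Pdgfa, Pdgfra and Pdgfrb, against 4.25% of all. An exact permutation test of 3 against 3 arrays cannot go below 0.1.

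Reporter-positive arrays were all above the reporter-negative ones for 2 member probe sets, 1 of Pdgfa and 1 of Pdgfd, against 5.66% of all probe sets tested. They were all below for 1, of Pdgfra, against 6.53%. The differences of the 14 probe sets were above 0 for 8 and below 0 for 6, and the median over all probe sets tested was -0.004. For the brightest probe sets of Pdgfra and Pdgfrb the sign held in all 20 alternative settings, at -3.00 to -0.88 and -2.55 to -0.81. The second Pdgfrb probe set kept its sign in 7 of 18. Settings that changed only the filter, the trend, the pool size block or the choice of the brightest probe set left each difference unchanged. The sign could not turn in these settings, which the counts include. The sign of the brightest Pdgfa probe set held in 19 of 20, with a range of -0.01 to 1.45. It turned when arrays were scaled to their hybridization controls, where the median difference of all probe sets tested was -0.36. Dim probe sets change little on this scale, so that median is no measure of how far brighter ones moved with the arrays.

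**Figure D4:**
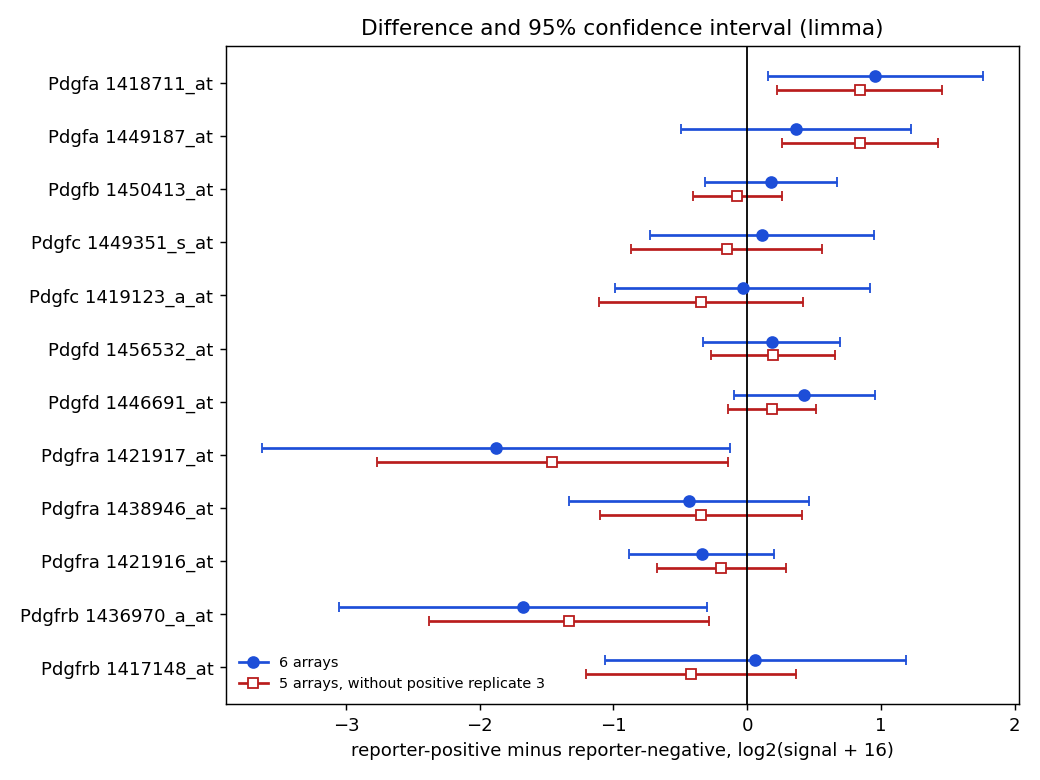
Reporter-positive minus reporter-negative difference in log2(signal + 16) with its 95% confidence interval (limma) for the 12 PDGF probe sets tested, in all 6 arrays (filled circles) and without reporter-positive replicate 3 (open squares). In the 6 arrays the intervals of 1418711_at of Pdgfa, 1421917_at of Pdgfra and 1436970_a_at of Pdgfrb exclude 0, and the other 9 include it.

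The beta receptor and the B chain are also known from mural cells, endothelium and platelets, so markers of these cells were read beside them. Of 10 mural cell markers 7 were tested and none passed. Their median difference was -0.04, and on reporter-positive replicates 1, 2 and 3 it was 0.12, -0.24 and -0.05. Apart from Acta2 and Notch3, the tested markers were near the floor of this scale on the reporter-negative arrays, with means of 4.22 to 4.43. The median of the list could therefore hardly fall, and it is not compared with Pdgfrb. The summed level of the mural cell markers was 6.53 to 7.37 on the reporter-positive and 6.76 to 7.18 on the reporter-negative arrays. Mcam and Anpep were above background on no array, and Cspg4, the pericyte proteoglycan NG2, was above it on 2 reporter-negative arrays and on no reporter-positive array. Kcnj8 went the other way, above background on 2 reporter-positive arrays and 1 reporter-negative array, and Notch3 was above it on all 3 arrays of each group. Of the 7 tested markers 3 differences were above 0 and 4 below. For endothelium 8 of 10 markers were tested and none passed, with a median difference of 0.13 and summed levels of 5.53 to 7.28 against 5.06 to 5.30. Pecam1 and Tie1 were above background on no array. For megakaryocytes and platelets 7 markers were tested, with a median difference of 0.12. Pf4, a platelet chemokine, differed by 1.43 (SE 0.57, adjusted p = 0.770) in 6 arrays and by 2.33 (SE 0.30, adjusted p = 3.62e-04) without reporter-positive replicate 3. Its normalized values were 4.59, 4.64 and 4.24 on the reporter-negative arrays and 6.61, 6.74 and 4.40 on the reporter-positive ones. Ppbp, another platelet chemokine gene, was higher and passed without that array (limma adjusted p = 0.00745). It was above background on no reporter-negative array, so no fold is given for it. Only these 2 markers of the list passed there, and the list median was 0.18. Itga2b differed by 0.05 and Gp5 by 0.11 in the same fit, and Gp9 was above background on no array. Pdgfb, which platelets also carry, was not above background on these reporter-positive arrays. Among other cells, 7 erythroid markers had a median difference of -1.82, and 5 of them were lower on every reporter-positive array. The median was 0.32 for 7 leukocyte markers, 0.35 for 3 markers of glia and neural crest and 0.07 for 5 myoblast markers. Without reporter-positive replicate 3 these medians were 0.59, 0.31 and -0.16, those of the mural and endothelial lists were 0.07 and 0.20, and the leukocyte genes Csf1r, C1qa and C1qb and 5 erythroid markers passed. The part of these cells in the PDGF values was not tested.

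Genes that act on PDGF outside the cell were read as a list of 11, all tested. It holds the convertases that trim the A and B chains, the proteases that cut the C and D chains, and proteins that bind ligand or receptor. None passed in 6 arrays; 4 differences were above 0 and 7 below, with a median of -0.24 that turned to 0.06 without reporter-positive replicate 3. St14, the membrane protease matriptase, which can cut the D chain, was higher on every reporter-positive array by 1.95 (SE 0.54, adjusted p = 0.770). Without reporter-positive replicate 3 it rose by 1.48 and passed (SE 0.33, adjusted p = 0.0482), the only member of the list to do so. Plat, tissue plasminogen activator, which cuts the C chain, differed by -1.05 (SE 0.42, adjusted p = 0.770) with overlapping groups, and by -0.78 without that array. Sparc, a matrix protein that binds the B chain, differed by 0.68 (SE 0.47), and Nrp1, a co-receptor, by -0.44 (SE 0.50). The Sparc difference was 0.30 and that of Nrp1 turned to 0.12 without that array.

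Adaptors, enzymes and phosphatases downstream of the receptors made a list of 40. The array named 32 of them and 31 were tested, and the others are not analysed here. None passed, 13 differences were above 0 and 18 below, and the median was -0.10, or 0.01 without reporter-positive replicate 3. The largest differences were -0.98 (SE 0.48) for the adaptor Crk, -0.92 (SE 0.47) for the phospholipase gene Plcg1 and 0.76 (SE 0.41) for the phosphatase gene Ptpn2, besides Stat5b, which was above background on 1 of 6 arrays and is given no fold. Of these, Ptpn2 alone did not overlap between the groups. The differences of Crk, Plcg1 and Ptpn2 were -0.71, -0.68 and 0.85 without reporter-positive replicate 3. The signal transduction genes thus lay on both sides of 0.

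The early transcriptional response was a list of 16, all tested. It holds mostly genes that growth factors switch on within minutes, with some of their transcriptional regulators. None passed; 12 differences were above 0 and 4 below, with a median of 0.20 in 6 arrays and 0.52 without reporter-positive replicate 3. Junb, Fos, Egr1 and Ccn2, 4 of the 16, were higher on every reporter-positive array, against 5.66% of all probe sets tested. Fos, Egr1 and Ccn2 differed by 0.87 (SE 0.36), 0.86 (SE 0.43) and 0.63 (SE 0.27). Junb was above background on no reporter-negative array, so no fold is given for it. Dusp6, a feedback phosphatase of the ERK pathway, differed by -1.04 (SE 0.59), against the majority of the list, and by -0.65 without that array. These genes also answer to many other growth factors. The cells had been dissociated with trypsin and sorted, and the part of that handling in these values was not tested.

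Related receptors and ligands of the KIT, CSF1 and VEGF families made a list of 15, and 13 of them were tested. None passed in 6 arrays, 7 differences were above 0 and 6 below, and the median was 0.07, or -0.10 without reporter-positive replicate 3. Csf1r, the macrophage receptor of CSF1, differed by 1.14 (SE 0.59, adjusted p = 0.770), and without reporter-positive replicate 3 it rose by 2.07 (SE 0.31, adjusted p = 0.00202). Vegfd differed by 0.42 (SE 0.47), Kitl, the ligand of KIT, by -0.41 (SE 0.34) and Vegfa by -0.31 (SE 0.37), each with overlapping groups. These rested in large part on reporter-positive replicate 3, without which they were -0.23, -0.22 and -0.01. Over all array probe sets the median difference was -0.004, and no list median is read as particular to its list.

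The genes whose profile over the 6 arrays was nearest to each member's were named by the root mean square difference of centred log2 values among 13684 genes. For Pdgfra they were Col1a2, a fibrillar collagen gene and itself one of the mesenchyme markers, at 0.283, and S1pr3, a sphingosine phosphate receptor, at 0.345, where the median gene stood at 1.46. For Pdgfrb they were Igfbp4, which binds insulin-like growth factors, at 0.147 and Ugdh, an enzyme of glycosaminoglycan precursor synthesis, at 0.230, with a median of 1.17. For Pdgfa they were Cyb561, a cytochrome gene, at 0.0621 and Pgr, the progesterone receptor gene, at 0.0714, with a median of 0.663. For Pdgfc they were Ctxn2 and Adam3 at 0.0539 and 0.0552, with a median of 0.452. Pdgfb was nearest to Apol8 and Clca4c-ps, and Pdgfd to Tmie and Slc7a8. These Pdgfb and Pdgfd probe sets were above background on 1 and 3 of the 6 arrays. The nearest genes of the receptors were lower on average in the reporter-positive group, by -2.34 for Col1a2 and -1.52 for Igfbp4, and those of Pdgfa were higher, by 1.05 for Cyb561 and 0.99 for Pgr. None of these genes passed the adjustment. They were chosen for profiles near the member's on the same 6 arrays, so sharing its direction follows from the choice.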

How the data were processed

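Biotin-labelled total RNA of the sorted cells was read on Affymetrix arrays, per the labels' protocols. The deposited table holds, for 45101 probe sets, a linear intensity per array, not scaled between arrays. GCOS is named for 1 of 6 samples in the submitters' processing notes. How probes were summarized, and any scaling, is not given in the sources used here.

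After 64 control probe sets were set aside, the linear signals of 45037 probe sets were quantile normalized and transformed to log2(signal + 16). Probe sets with a mean above the 30th percentile (31526) were tested in limma 3.58.1 under R 4.3.3 (lmFit, then eBayes with trend). The p-values were adjusted over all of them by Benjamini-Hochberg, with a threshold of 0.05. The steps were tested on simulated data. Of the probe sets 34945 had 1 gene, 932 several and 9160 none named here; 34741 matched a RefSeq gene (GRCm38.p6). The number of arrays limits the precision, and p-values reflect the spread among arrays of pooled littermates, which holds both biological and technical differences. Alternatives concerned scaling, pseudocount, filter, probe set choice, array weights, a block for pool size, the trend and leaving out each array.

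The members and the gene lists were chosen with earlier results of these data known. Named genes were the 6 members with every probe set, the 2 genes of nearest profile for each, from each list the genes past the threshold and up to 4 tested genes with the largest difference, and Shh, Krt8, Cdh1 and Col1a2. St14, Plat, Csf1r and the others follow this rule. Ccn2, C1qa, C1qb, the mural cell and platelet markers named and the marker genes named as below background were picked after their values were seen.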

Additional observations from a re-analysis of the deposited data

How the results depend on the processing

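Brightest probe sets were recomputed in 20 settings, the further ones tested in 18 and those not tested in 1. The setting with the 4 arrays of pools of 3 and 5 embryos was chosen after the data were seen. The brightest receptor probe sets kept their sign in all 20, which include the settings that could not change it. The brightest Pdgfrb probe set passed in 1, with array weights (-1.33), where 1 member was called. The brightest Pdgfa probe set turned to -0.0055 with hybridization control scaling, and the second to -0.0186. The brightest Pdgfb probe set turned to -0.14 as deposited, -0.16 with hybridization control scaling, -0.0257 with array weights and -0.0152 in the 4 arrays. That of Pdgfc turned to -1.72, -1.89, -0.0178 and -0.0519 in the same settings, to -0.76 with median centring and to -0.80 with 75th percentile scaling. That of Pdgfd turned to -0.14 as deposited and -0.19 with hybridization control scaling. The second Pdgfrb probe set turned to -0.63 as deposited, -0.11 with median centring, -0.19 with 75th percentile scaling, -0.70 with hybridization control scaling, -0.18 with a pseudocount of 4, -0.12 with array weights and -0.17 in the 4 arrays. The cause was not tested.

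Leaving out 1 array at a time gave -0.0292 to 0.84 for the second Pdgfa probe set, -0.0744 to 0.33 for Pdgfb, -0.15 to 0.26 for the brightest and -0.35 to 0.25 for the second Pdgfc probe set, and -0.42 to 0.65 for the second Pdgfrb probe set.

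The 4 probe sets called on the whole array became 0 as deposited, with hybridization control scaling, a pseudocount of 64, the mean of a gene's probe sets, the replicate block and no intensity trend, 2 with the brightest probe set per gene, 9 without a filter, 12 with median centring (5 higher, 7 lower), 29 with 75th percentile scaling (17 higher, 12 lower), 742 with array weights (381 higher, 361 lower) and 97 in the 4 arrays. They were 0 to 139 when 1 array was left out: 0 without reporter-negative replicate 1 or 3, 12 without reporter-negative replicate 2, and 14, 8 and 139 without reporter-positive replicates 1, 2 and 3. Replicates of equal number had equal pool size. Their deviations from the group mean correlated at 0.120, 0.0323 and 0.104, against -0.130 to 0.0663 for the others, which does not settle whether they are pairs. The sample titles carry consecutive numbers for arrays of equal pool size, but the labels state no pairing. The arrays were therefore not taken as pairs in the main fit, and with the replicate block 0 members were called. Low signal limits what can be read: Pdgfb and 2 Pdgfd probe sets were at or below background on most arrays.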
